A study of Mus musculus with 2 samples.

Results

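Retinoic acid genes were examined in 2 rhabdoid tumors (RT) of the mouse, and 10 of the 55416 genes in the table of read counts were followed. They comprised the synthesizing enzymes Aldh1a1, Aldh1a2 and Aldh1a3, the degrading enzymes Cyp26a1 and Cyp26b1, the receptors Rara, Rarb and Rarg, and the cellular binding proteins Crabp1 and Crabp2. The set was chosen by function, but with the read counts of these same libraries already known, Aldh1a2 having stood among the genes farthest toward one of them. Differences between the libraries are therefore given as descriptions of these genes, without a test. All 10 genes were found in the table and all 10 held at least 10 counts over both libraries.

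Both tumors came from heterozygous Dppa3-cre::Smarcb1 Fl/+ mice, kept on a C57BL/6 background, in which Cre is expressed from the Dppa3 locus and 1 Smarcb1 allele is floxed. Dppa3 is a marker of primordial germ cells (PGCs), and the product of Smarcb1 belongs to SWI/SNF, which moves nucleosomes. Cre is thus driven by a germ cell gene and not by a gene of the tissues labelled, and the other Smarcb1 allele was not floxed. One tumor was labelled intracranial and one extracranial. The paper shows stained sections of an intracranial tumor of this model at the trigeminal nerve and of an extracranial one in the maxillary region. It does not state that these were the tumors sequenced. Both sequenced tumors were labelled as MYC tumors, and no age, normal tissue or Cre-negative control entered the comparison. With 1 library per location there was no replicate, so every interval below covers counting error only and every difference is one between 2 libraries, not between locations.

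The libraries held 34545846 (intracranial) and 26915696 (extracranial) counts. Smarcb1, the targeted gene, had 365 and 530 counts. The paper reports loss of Smarcb1 protein in its stained intracranial and extracranial tumors of this model. Bulk read counts do not separate tumor cells from other cells, so they do not show whether tumor cells kept Smarcb1. Some markers went against the labels. Tnn, C1qtnf3, Prelp, Tlx2 and Postn are given in the paper as markers of extracranial RT cells. All 5 were higher in the library labelled intracranial, with a median log2 ratio of -2.80, and they summed to 2542 CPM (counts scaled to a library of 1000000) there and to 922 CPM in the library labelled extracranial. The labels are used below as names of the libraries. The libraries also differed in other tissue. All 10 genes of a stratified epithelium list were higher in the intracranial library, with summed levels of 22352 and 9.01 CPM, and Krt5, Krt6a, Trp63 and Dsg3 were at 0 counts in the extracranial library. Krt13 had the most counts of this list, 366709 and 5, and Muc5b of a glandular and airway epithelium list had 83812 and 0. Whether the labels of the 2 libraries are right was not tested. Because these are bulk samples, fewer cells of a type and less RNA per cell cannot be told apart.

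Retinoic acid is made from vitamin A (retinol) in a pair of oxidations, of which the last, from retinal, is carried out by the ALDH1A enzymes. CYP26 enzymes hydroxylate it for clearance, so the cells that make it and the cells that remove it together set where it acts. In the nucleus it binds retinoic acid receptors (RAR), which sit on DNA as dimers with retinoid X receptors (RXR), while CRABP proteins carry it in the cytoplasm. In the embryo the pathway is known for patterning the hindbrain, the face and the limbs, and for its part in the entry of germ cells into meiosis.

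A classical binding site of the RAR-RXR dimer is a direct repeat with a spacer of 5 bases (DR5). It was searched in the RefSeq promoters (build GRCm38.p6, 250 bases before to 50 bases after the start site), on both strands, with each unit of the repeat written as AGGTCA, as its variant AGTTCA, as the form GGGTCA or as the form GGTTCA. A match was found in 32 of 32851 promoters (0.0974%). Of the 10 genes, 8 had a promoter in this set, and 2 of them, Rarb and Cyp26a1, held a match. Both are shown because their read counts, given below, lay on opposite sides between the libraries. The 100 bases before each start site are printed 5′ to 3′ along the gene, with the DR5 match in capitals. The stretch of Rarb lies at chr14:16575477-16575576 on the minus strand, and that of Cyp26a1 at chr19:37697708-37697807 on the plus strand.
Rarb: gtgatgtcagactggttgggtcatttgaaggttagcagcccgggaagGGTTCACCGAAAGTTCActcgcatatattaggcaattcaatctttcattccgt
Cyp26a1: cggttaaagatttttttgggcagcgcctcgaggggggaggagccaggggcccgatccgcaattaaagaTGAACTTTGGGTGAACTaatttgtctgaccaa
The match spans positions -53 to -37 in Rarb, on the gene's own strand, and -32 to -16 in Cyp26a1, on the opposite strand. A match is a stretch of letters and was not measured as a bound site. The same units with a spacer of 1 or 2 bases (DR1, DR2) were found in 0.222% and 0.268% of promoters and in none of the members' promoters.

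Among the enzymes, the synthesizing genes Aldh1a2 and Aldh1a3 were far higher in the extracranial library, and the degrading gene Cyp26b1 was far higher in the intracranial one. Rara and Rarg were 1.53-fold and 1.52-fold lower in the extracranial library, where Rarb was lower as well but rested on few counts, and Crabp1 and Crabp2 were 1.16-fold and 1.49-fold higher there. A gene was called where the whole 95% counting interval of its ratio lay beyond 4-fold. Of the 10 members 4 were called, 3 higher in the extracranial library (Aldh1a2, Aldh1a3 and Cyp26a1) and 1 higher in the intracranial library (Cyp26b1). Over all 21977 genes with at least 10 counts, 7.19% were called, 1.78% higher in the extracranial and 5.41% higher in the intracranial library. An interval that left out an equal ratio was found for all 10 members and for 61.4% of all genes, so at this depth most genes differed by more than counting error. The median log2 ratio (extracranial over intracranial) was -0.19 for the members, against -0.04 for the 24490 genes above 3 counts in either library.

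**Figure D1:**
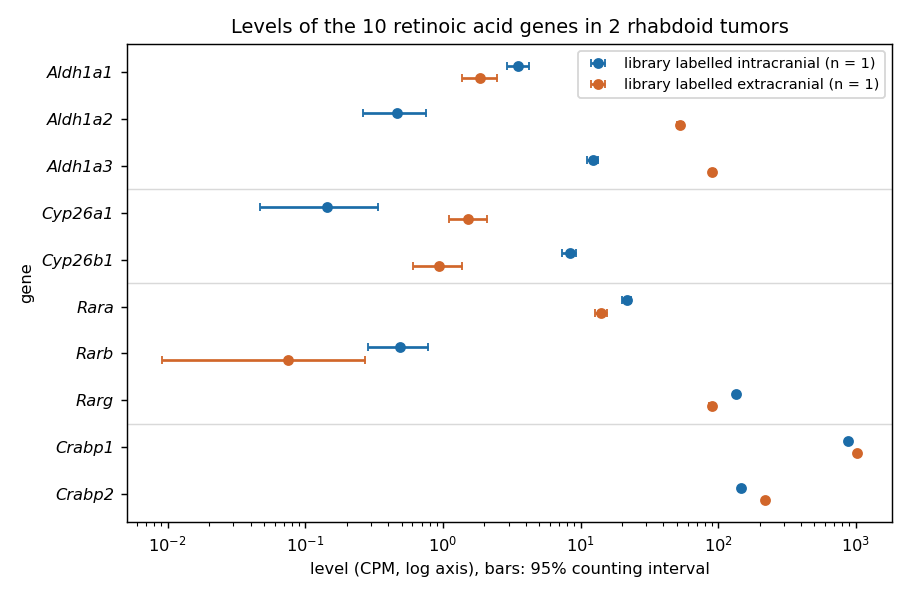
Level of each of the 10 genes in CPM (log axis) in the intracranial (blue) and the extracranial (orange) library, with 1 library each. Points are levels and bars their 95% Clopper-Pearson counting intervals. Crabp1 is the highest in both, at 880.2 and 1020 CPM, and Aldh1a2 shows the widest gap, from 0.461 to 53.1 CPM.

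**Figure D2:**
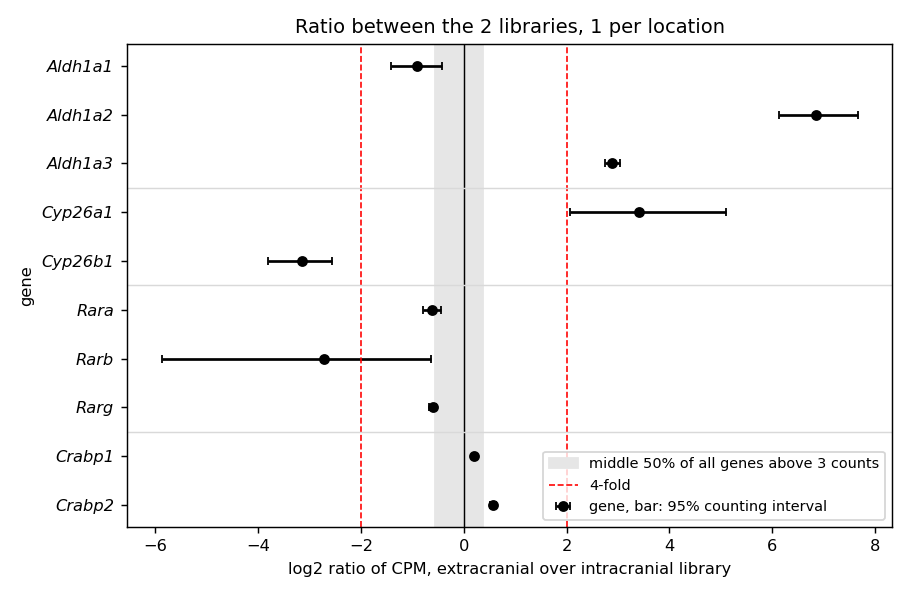
Log2 ratio of CPM, extracranial over intracranial, for each of the 10 genes, with the 95% counting interval as a bar. Dashed lines mark 4-fold, and the grey band is the middle 50% of all genes above 3 counts (-0.55 to 0.38). Aldh1a2, Aldh1a3 and Cyp26a1 lie to the right of 4-fold and Cyp26b1 to the left.

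Among the synthesizing enzymes, Aldh1a2 (ENSMUSG00000013584), the main source of retinoic acid in the embryonic trunk mesoderm, had 16 counts in the intracranial and 1420 in the extracranial library. This was 0.461 CPM (95% interval 0.263 to 0.748) against 53.1 CPM (50.3 to 55.9), a log2 ratio of 6.85 (6.14 to 7.66). The gene was thus near the lower end of detection in one tumor and well expressed in the other, a 115-fold difference with an interval that starts at 70.7-fold. Aldh1a3, an enzyme known from the developing eye and nose, had 425 and 2427 counts, or 12.2 CPM (11.1 to 13.5) and 90.7 CPM (87.1 to 94.4). It was 7.42-fold higher in the extracranial library (log2 ratio 2.89, 2.74 to 3.04). Aldh1a1, which is known from the dorsal retina and many adult tissues, went the other way. It had 122 and 50 counts, 3.51 CPM (2.92 to 4.19) and 1.87 CPM (1.39 to 2.46), and was 1.88-fold higher in the intracranial library (log2 ratio -0.91, -1.42 to -0.42).

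Because long transcripts gather more reads, levels of different genes were compared only as CPM per kilobase of annotated exon. On this scale Aldh1a3 made up 74.3% of the 3 synthesizing genes in the intracranial library, Aldh1a1 20.0% and Aldh1a2 5.71%. In the extracranial library Aldh1a2 took 53.9%, Aldh1a3 45.2% and Aldh1a1 0.871%. The order of the leading pair in the extracranial library rests on the length used, since with the longest transcript of each gene Aldh1a3 took 52.1% and Aldh1a2 46.3%. With either length, Aldh1a2 was the lowest of the 3 in the intracranial library and far above Aldh1a1 in the extracranial one. Read counts of the 3 genes together were 563 and 3897, a log2 ratio of 3.17 (3.04 to 3.30).

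Among matrix-producing and mineralized tissue genes, some markers were higher in the extracranial library and others lower. In the list of fibroblasts and pericytes 2 of 10 genes were called, both higher in the extracranial library. These were the proteoglycans Dcn (3745 and 21130 counts) and Lum (853 and 15309 counts), while Col1a1 (38670 and 23741) and Pdgfra (9417 and 3686) were lower there. The list summed to 3617 and 5304 CPM. Dmp1, a matrix protein of bone and dentin, had 29 and 3988 counts. Of the other bone and tooth genes, Alpl (43 and 109) and Sp7 (17 and 31) lay on the same side. Ibsp (186 and 15) and Bglap (60 and 4) were higher in the intracranial library, and Dspp had 0 counts in both. Of the 7 genes of this list with at least 10 counts, 4 had an interval above an equal ratio, 2 below and 1 held it. Aldh1a2 and Crabp2 are also known from the meninges. Without these members, the meninges list of 7 genes summed to 5.50 and 1.08 CPM, and its genes Zic1 and Slc22a6 had 0 counts in both libraries. The part of any of these tissues in the level of Aldh1a2 was not tested. Aldh1a3 and Crabp2 are also known from epithelia, and both were higher in the library in which the stratified epithelium list summed to 9.01 CPM. The part of epithelium in their levels was not tested.

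The degrading enzymes lay on opposite sides. Cyp26b1, known for clearing retinoic acid from the limb bud and the fetal testis, had 289 counts in the intracranial and 25 in the extracranial library. These were 8.32 CPM (7.39 to 9.33) and 0.934 CPM (0.605 to 1.38), so that it was 8.90-fold higher in the intracranial library (log2 ratio -3.15, -3.81 to -2.56). Cyp26a1, which retinoic acid itself is known to induce, had 5 and 41 counts, or 0.144 CPM (0.0467 to 0.336) and 1.53 CPM (1.10 to 2.08). Its log2 ratio was 3.41 (2.07 to 5.11), the widest interval among the called members, and its near bound of 4.21-fold lay just past the 4-fold limit. Per kilobase, Cyp26b1 took 95.5% of the pair in the intracranial library and Cyp26a1 took 81.6% in the extracranial one. The related Cyp26c1 had 0 and 2 counts. Both degrading genes were low in either tumor, and the summed counts of the pair were 294 and 66, a log2 ratio of -1.78 (-2.19 to -1.39).

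Set side by side, the synthesizing genes summed to 3.56 CPM per kilobase and the degrading genes to 1.63 in the intracranial library, 2.19 times as much. In the extracranial library the sums were 43.5 and 0.947 CPM per kilobase, 45.9 times as much. These are ratios of transcript levels, and neither enzyme activity nor retinoic acid was measured.

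**Figure D3:**
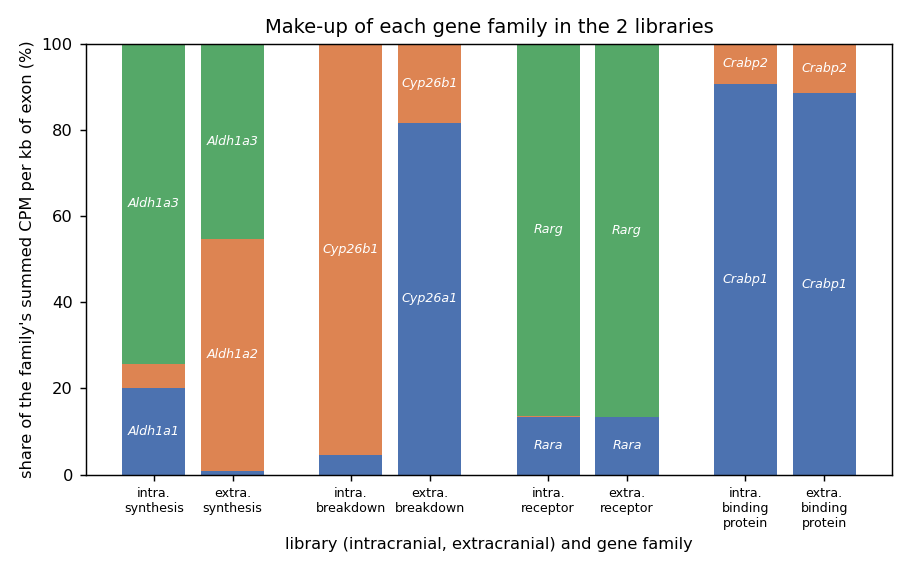
Share (%) of each gene in the summed CPM per kilobase of exon of its family, with 1 bar per library and family. Aldh1a2 goes from 5.71% to 53.9% of the synthesizing genes and Cyp26a1 from 4.46% to 81.6% of the degrading genes, whereas Rarg keeps 86.3% and 86.6% of the receptors and Crabp1 90.8% and 88.5% of the binding proteins.

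The receptors kept their order in both tumors. Rarg, the receptor known from cartilage and skin, led with 4719 and 2395 counts, 135.8 CPM (132 to 139.7) and 89.5 CPM (86.0 to 93.2). It was 1.52-fold higher in the intracranial library (log2 ratio -0.60, -0.67 to -0.53). Rara, the most broadly expressed receptor, had 753 and 378 counts, 21.7 CPM (20.2 to 23.3) and 14.1 CPM (12.7 to 15.6), with a log2 ratio of -0.62 (-0.80 to -0.44) whose interval held that of Rarg. Rarg and Rara thus made up 86.3% and 13.4% of the receptors per kilobase in the intracranial library and 86.6% and 13.3% in the extracranial one. Epithelia of the skin and mouth also express Rarg, and the stratified epithelium list was higher in the same library, as given above. Its part in the level of Rarg was not tested.

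Rarb, a receptor that retinoic acid is known to induce through the DR5 site shown above, was near the limit of detection. It had 17 and 2 counts, 0.489 CPM (0.285 to 0.783) and 0.0747 CPM (0.00905 to 0.27). The extracranial value lies below the 3 counts taken as background, and the log2 ratio of -2.71 had an interval of -5.87 to -0.64. Per kilobase, Rarb took 0.252% and 0.0585% of the receptors. The count has a limit of its own, since 1793 of the 5265 exon bases of Rarb are also exon of Top2b on the opposite strand, which also gives 32.3% of its 72-base stretches a copy in that gene or in an antisense gene, and whether reads were counted by strand was not stated. Top2b had 3110 and 2298 counts. Of the other members, none overlapped an exon of another gene in the annotation, and at most 1.20% of their 72-base stretches had a copy elsewhere.

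The 2 members with a DR5 match thus differed in direction. Cyp26a1 was higher in the extracranial library, together with Aldh1a2 and Aldh1a3, whereas Rarb was lower there. Both were low, with at most 41 and 17 counts in a library.

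Binding proteins were by far the most abundant members. Crabp1, which buffers cytoplasmic retinoic acid, had 30583 and 27282 counts, 880.2 CPM (870.3 to 890.1) and 1020 CPM (1007 to 1032). In each library its level per kilobase lay at percentile 99.8 of 24295 ranked genes. It was 1.16-fold higher in the extracranial library (log2 ratio 0.21, 0.19 to 0.24), a small difference that counts this high set apart from an equal ratio. Crabp2, which is known to deliver retinoic acid to RARA in the nucleus, had 5112 and 5871 counts, 147.1 CPM (143.1 to 151.2) and 219.4 CPM (213.8 to 225.1). It was 1.49-fold higher in the extracranial library (log2 ratio 0.58, 0.52 to 0.63) and lay at percentiles 96.7 and 97.5. Per kilobase, Crabp1 exceeded Crabp2 in both tumors, at 1097 against 111.3 CPM per kilobase in the intracranial and 1271 against 166.0 in the extracranial library.

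Ordered per kilobase, Crabp1, Crabp2, Rarg, Rara, Aldh1a3, Cyp26b1 and Aldh1a1 followed each other in the intracranial library with counting intervals that did not overlap. Aldh1a2, Rarb and Cyp26a1 came last, at 0.203, 0.0929 and 0.0726 CPM per kilobase, and neighbors among them overlapped. In the extracranial library the order ran Crabp1, Crabp2, Aldh1a2, Rarg, Aldh1a3, Rara, Cyp26a1, Aldh1a1, Cyp26b1 and Rarb. There, only Rarg (20.2 to 21.9 CPM per kilobase) and Aldh1a3 (18.9 to 20.4) overlapped as neighbors. These intervals cover counting error at the exon length used. The longest transcripts of Rarg and Aldh1a3 have 2953 and 3443 bases against 4261 and 4617 of exon, while Aldh1a2 has 2264 by either length. With the longest transcripts Aldh1a2 came below both, so the order of Aldh1a2, Rarg and Aldh1a3 rests on the length used.

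Another 58 genes of the pathway, on 5 lists, were compared in the same way. Of 48 with at least 10 counts, 1 was called higher in the extracranial and 8 higher in the intracranial library, beside 1.78% and 5.41% of all genes. Their median log2 ratio was -0.07. The intracranial library was also the one with the stratified epithelium list at 22352 CPM and the glandular and airway epithelium list at 2653 CPM, against 9.01 and 21.5 CPM. The part of epithelium in these genes was not tested.

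Genes of retinol uptake and storage leaned to the intracranial library, with a median log2 ratio of -2.48 over 9 genes. Called were Rbp2, a cellular retinol-binding protein of the gut lining, with 808 and 2 counts (log2 ratio -8.28, -11.33 to -6.42), and Stra6, the membrane receptor for circulating retinol, with 69 and 1 counts (-5.73, -11.06 to -3.21). Lrat, which stores retinol as esters, had 84 and 11 counts (-2.56, -3.61 to -1.64), and it is named here after its values were seen. Toward the extracranial side lay Scarb1, a lipoprotein receptor (401 and 580 counts), and the plasma carrier Rbp4 (5 and 31 counts), which was also picked afterwards. Dgat1, another esterifying enzyme, had 819 and 534 counts (-0.24, -0.40 to -0.08). Ttr, the carrier of retinol-binding protein in blood, had 0 counts in both, with upper 95% limits of 0.106 and 0.138 CPM.

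For the interconversion of retinol and retinal, 17 genes were listed and 15 had enough counts, of which 4 were called, all higher in the intracranial library. These were the dehydrogenases Adh7 (2890 and 4 counts, log2 ratio -9.12, -11.00 to -7.76), Rdh12 (525 and 9, -5.49, -6.63 to -4.55), Adh1 (337 and 0) and Sdr16c5 (457 and 0). Against a floor of 3 counts in the extracranial library, Adh1 was at least 86.5-fold and Sdr16c5 at least 117-fold higher in the intracranial library. With the counting error of both libraries taken in, the 95% bounds of their log2 ratios were -6.13 and -6.57. The enzymes that are best known for the embryonic pathway did not follow them. Rdh10, which makes retinal for the ALDH1A enzymes and is named here outside the rule for that role, had 379 and 318 counts, 10.9 and 11.9 CPM, with a log2 ratio of 0.12 whose interval (-0.10 to 0.34) held an equal ratio. Dhrs3, which turns retinal back into retinol and is known to be induced by retinoic acid, had 1851 and 4061 counts and was 2.85-fold higher in the extracranial library (1.51, 1.43 to 1.59). Adh5, a formaldehyde-clearing dehydrogenase, had 3089 and 2183 counts, Dhrs4 had 710 and 720, and Adh4 had 0 counts in both. The median of the list was -0.24.

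The list of other retinal dehydrogenases and hydroxylases held 3 genes. Aldh1a7, a close copy of Aldh1a1, had 29 and 52 counts (log2 ratio 1.22, 0.54 to 1.93), opposite to Aldh1a1. Reads could be shared between this pair only in small part, since 1.20% of the 72-base stretches of Aldh1a1 transcripts recurred in transcripts of Aldh1a7. Aldh8a1 had 1 and 0 counts.

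Receptor partners and cofactors were the most even group, with a median log2 ratio of -0.03 and 1 of 10 genes called. That gene was Fabp5, a fatty acid-binding protein of keratinocytes that can also carry retinoic acid, with 47615 and 412 counts (-6.48, -6.62 to -6.34). Rxra and Rxrb, the dimer partners of the RARs and named here for that role, had 2032 and 1247 counts (-0.33, -0.43 to -0.23) and 1680 and 1502 counts (0.22, 0.11 to 0.32). Rxrg was almost undetected, at 4 and 1 counts. The corepressor Ncor1 had 98.1 and 104.1 CPM, and the coactivator Ncoa3 had 69.7 and 91.1 CPM. Leaving out Fabp5, the log2 ratios of the partners with at least 10 counts lay between those of Rxra and Ncoa3 (0.39, 0.31 to 0.47).

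**Figure D4:**
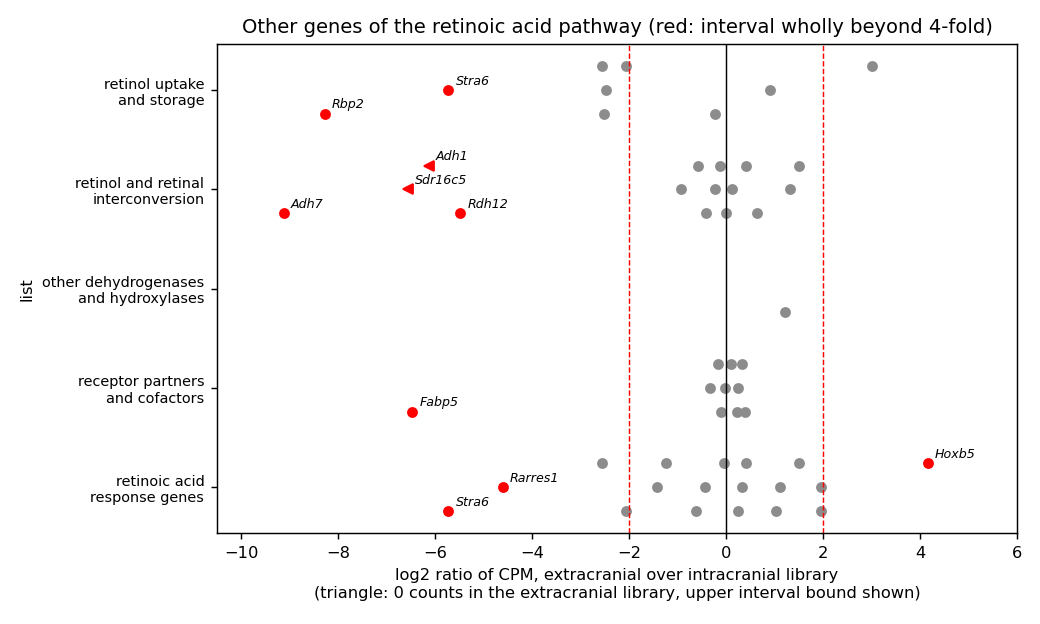
Log2 ratio of CPM, extracranial over intracranial, for the other pathway genes with at least 10 counts, by list. Each point is 1 gene, placed at 3 heights per list only to keep points apart, and red marks the called genes. Genes with 0 counts in the extracranial library are drawn as triangles at the upper bound of their interval. The called genes lie on the left, apart from Hoxb5 at 4.15, and Stra6 appears on 2 lists.

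Genes known to respond to retinoic acid did not lie on one side. Of 22 genes, 18 had at least 10 counts, with 6 intervals above an equal ratio, 8 below and 4 that held it, and the median log2 ratio was -0.04. Called were Hoxb5 toward the extracranial side and Rarres1 and Stra6 toward the intracranial side. Hoxb5, a homeobox gene with known retinoic acid control in the hindbrain and spinal cord, had 3 and 41 counts (4.15, 2.50 to 6.49), and its neighbor Hoxb4, named after its values were seen, had 76 and 226 counts (1.95, 1.57 to 2.34). Rarres1, a retinoid-inducible gene of skin, had 983 and 31 counts (-4.61, -5.18 to -4.10). The paper also names Rarres1 among genes that every MYC tumor group expressed and that were absent in SHH tumors. Which cells the Rarres1 reads came from was not tested. Tgm2, a transglutaminase that retinoids induce in many cells, was nearly even at 40.9 and 48.3 CPM, and Nrip1, a receptor corepressor, had 30.1 and 38.0 CPM. Hoxb1 and Tbx5 had 0 counts in both libraries. Stra6, Dhrs3, Lrat and Nrip1 stand on another pathway list as well.

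Cell type markers were compared across 11 lists. Of the sensory neuron list, 7 and 5 of 10 genes lay above 3 counts. The list summed to 24.2 and 14.2 CPM, most of it Tubb3 in the intracranial library (629 and 118 counts). Prph, the highest of the list in the extracranial library, went the other way (97 and 181 counts). Of 5 genes with at least 10 counts, 1 interval lay above an equal ratio, 1 below and 3 held it. Trpv1, an ion channel of pain-sensing neurons, had 2 and 1 counts. Schwann cell genes summed to 246.8 and 253.3 CPM, and their defining factor Sox10 had 43 and 0 counts. Of these 10 genes, 8 had an interval below an equal ratio and 2 above, so the even sums do not mean even genes. Skeletal muscle summed to 60.7 and 12.7 CPM, with Myod1 and Myog at most at 2 counts. Germ cell genes summed to 24.8 and 23.9 CPM. Pou5f1 and Prdm14 had 0 counts in both, and other genes of the list lay on either side. Dppa3, whose locus drives Cre, had 20 and 91 counts, and Tfap2c, a transcription factor of germ cells and also of skin, had 320 and 7 counts (log2 ratio -5.14, -6.46 to -4.08), the 1 gene of this list that was called. Macrophage genes were abundant, 5464 and 10977 CPM, with all 10 above 3 counts in each library, and Lyz2 was the highest at 102495 and 124735 counts. Endothelial genes summed to 236.9 and 407.1 CPM. Of the macrophage genes 8 of 10, and of the endothelial genes 9 of 10, had an interval above an equal ratio. This is the side of Aldh1a2, Aldh1a3 and Cyp26a1. Over all genes, 61.4% had an interval that left out an equal ratio on either side. Cd163 (3507 and 480 counts) was the 1 macrophage gene called, toward the intracranial side, and Mertk (1168 and 606) also lay there. None of the endothelial genes was called. The part of macrophages and endothelium in the levels of the members was not tested.

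**Figure D5:**
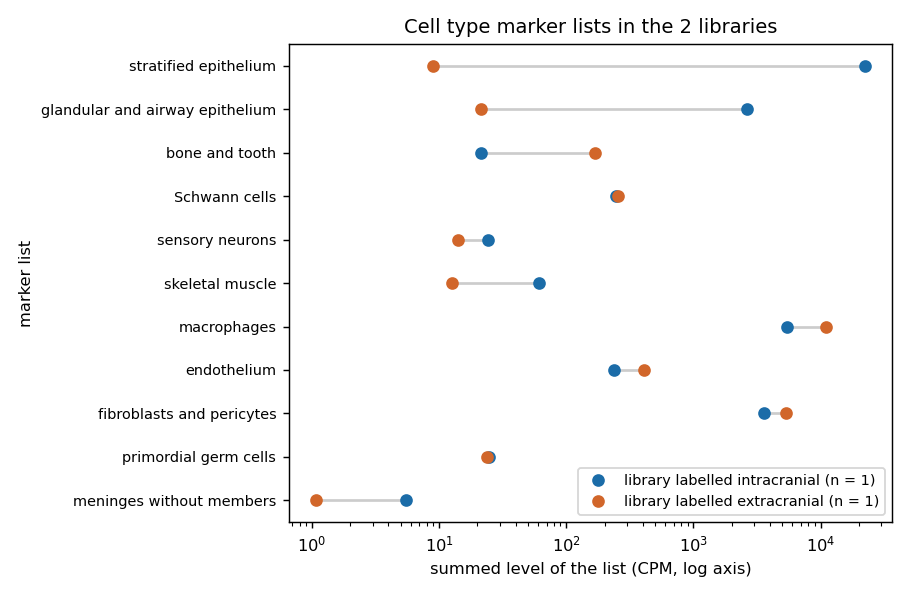
Summed CPM (log axis) of each cell type list in the intracranial (blue) and extracranial (orange) library, 1 library each. The meninges list is drawn without Aldh1a2 and Crabp2. The stratified epithelium list shows the widest gap, from 22352 to 9.01 CPM. The sums of the Schwann cell and primordial germ cell lists nearly coincide, although their genes lay on either side.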

How the data were processed

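Bulk RNA-seq of 2 mouse tumors was used, grouped by the localization label, 1 library each. The authors deposited raw read counts per Ensembl gene, made from poly(A)-selected directional libraries with single reads. Per the methods and the submitters' processing notes, these were aligned with STAR 2.7.9a to GRCm39 and counted with featureCounts. Use of the strand and treatment of reads with several alignments were not stated.

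The members and lists were chosen with earlier results of these data known. Symbols, exon lengths and overlaps were taken from GENCODE mouse release M21 (GRCm38), so lengths may differ from the counted models, and 93.99% of IDs had a symbol. Promoters came from RefSeq (GRCm38.p6). Libraries were scaled by TMM (edgeR 4.0.16, R 4.3.3; factors 1.006 and 0.994) to CPM. A floor of 3 counts was 0.0863 and 0.112 CPM. Levels carry exact Clopper-Pearson 95% intervals and ratios conditional exact binomial ones (scipy 1.17.1). Without molecular identifiers, amplified copies cannot be set apart, so these intervals and the floor cover counting error only. The quasi-likelihood test could not be fitted without replicates, and no p-value is given. List medians set counts of 3 or fewer to 3. All 10 members were named, as were pathway genes that were called, were among the 3 highest of their list in a library or had 0 counts in both. Others are marked, and some genes that meet this rule are not reported here. With 2 libraries no gene was named for a pattern like the members'. Alternatives comprised DESeq2 (1.42.0) size factors, total counts, upper quartile scaling, other count minimums and folds, a prior count of 2 and other lengths.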

Additional observations from a re-analysis of the deposited data

How the results depend on the processing

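No paired analysis was possible because the comparison rested on 1 library against 1, and so no library could be left out either. Other scalings shifted all log2 ratios by -0.02 to 0.04, and under each of them 4 members and 9 pathway genes were called, as with TMM. Every member kept its direction, and 167 of 168 values of log2 ratios of members and pathway genes stayed as they were, with an interval that left out an equal ratio on the same side or still held it. The exception was Ncor1, whose log2 ratio of 0.07 under total counts had an interval that held an equal ratio. The 4 members called were 4 also with an interval beyond 2-fold, whereas that limit gave 16 pathway genes, 4 of them higher in the extracranial library, and 3434 of all genes in place of 1581. A ratio beyond 4-fold without the interval gave 2542. Upper quartile scaling moved the median of the macrophage list from 1.20 to 1.24 and that of fibroblasts and pericytes from 0.31 to 0.35. Family shares moved with the length used. Without length correction, Aldh1a2 took 36.4% of the synthesizing genes in the extracranial library, Cyp26b1 98.3% and Cyp26a1 62.1% of the degrading genes in the intracranial and extracranial library, and Crabp1 85.7% and 82.3% of the binding proteins. With the longest transcript, chosen after seeing the data like the restriction to protein-coding genes (1407 called), Aldh1a3 took 67.7% in the intracranial and Aldh1a2 46.3% in the extracranial library, Rarg 87.5% of the receptors in the intracranial library and Crabp1 87.4% and 84.4%. The lead of Aldh1a2 over Aldh1a3 was lost in both settings. Differences of low genes such as Rarb and Cyp26a1 are limited by depth.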

Other observations

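Beyond Rarb and Cyp26a1, a DR5 match stood in the promoters of other genes without a listed role in the pathway, 31 genes in all, of which 18 were found in the table by symbol and 8 had at least 10 counts. Of these 8, 1 was called higher in the extracranial library (Cyp26a1) and 2 higher in the intracranial library, beside 7.19% of all genes. The latter were Prss27, a membrane serine protease (507 and 0 counts), and the platelet chemokine gene Ppbp (250 and 24 counts, log2 ratio -3.00, -3.67 to -2.40). Tnfsf13b, a B cell survival factor, had 354 and 700 counts (1.36, 1.17 to 1.55), and Blvrb, a biliverdin reductase, had 2139 and 2462 (0.58, 0.50 to 0.66). The median log2 ratio over the 11 genes above 3 counts was -0.04. Genes carrying this sequence within their promoter window therefore lay on both sides between the libraries. The list was drawn up after the values of its members among the retinoic acid genes had been seen.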
